A study of Mus musculus with 12 samples.

Results

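Myt1l, Myt1 and St18 form the mouse family of MYT1-type zinc-finger transcription factors, and all 3 were present among the 55335 genes listed for every library. They were taken by gene symbol and not by a measured value, although earlier results of these data were known when they were chosen. UMI counts (unique molecular identifiers, each standing for 1 captured RNA molecule) came from single nuclei of the forebrain of C57BL/6J mice at postnatal day 1. The 8 WT animals (5 male, 3 female) carried 2 intact Myt1l alleles, and the 4 Het animals (3 male, 1 female) carried 1 intact allele and 1 germline allele named Myt1l S710fsX, a frameshift in the Myt1l reading frame. Each animal gave 1 library, nuclei were not sorted, and the animals came from 4 litters and the labels do not give each animal's litter, so litter and genotype could not be separated. The counts do not separate the alleles, and how much RNA the frameshift allele leaves was not measured. The Myt1l count therefore does not check the genotype labels.

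Proteins of this family bind DNA through clusters of CCHHC zinc fingers, in which cysteines and histidines hold a zinc ion, and recruit histone-deacetylase corepressors such as the SIN3 complex. Myt1l is known as a pan-neuronal factor that starts when neurons are born and represses programmes of other lineages. Myt1 is known from oligodendrocyte progenitors and from cells entering the neuronal fate, and St18 (also Myt3) from GABAergic neurons of the ventral forebrain and from endocrine cells of the pancreas. The comparisons ask where each gene is counted, how its level moves as excitatory neurons mature, and whether the paralogs stand higher where 1 Myt1l allele is disrupted.

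In the GRCm38 build with GENCODE M21 annotation, Myt1l (ENSMUSG00000061911.15) lies on the plus strand at chr12:29528384-29923213. Myt1 (ENSMUSG00000010505.16) lies on the plus strand at chr2:181763332-181827797, and St18 (ENSMUSG00000033740.17) on the plus strand at chr1:6487231-6860940. The next sequence shows where the allele's name places the frameshift, codons 700 to 720 of the 1187-codon Myt1l transcript, within 1 coding exon at chr12:29849307-29849369. It is written 5′ to 3′ with codon 710, a serine, in capitals. Among the complete annotated Myt1l transcripts long enough to hold it, codon 710 was a serine in this one only.
Myt1l codons 700 to 720: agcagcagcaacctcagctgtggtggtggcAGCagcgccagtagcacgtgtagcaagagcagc

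A pattern search of the translated transcripts (Cys, 4 residues, Cys, 4 residues, His, 7 residues, His, 5 residues, Cys) found 6 fingers in Myt1l, 7 in the 1169-codon Myt1 transcript and 6 in the 1045-codon St18 transcript. In Myt1l 3 of the 6 lay before codon 710 and 3 after it. The last finger before codon 710 is shown beside a chosen finger of each paralog, with the capitals marking the cysteine and histidine codons. These lie at codons 551 to 575 of Myt1l (chr12:29836379-29838052), 530 to 554 of Myt1 (chr2:181801844-181802928) and 410 to 434 of St18 (chr1:6809306-6810586), and each stretch crosses an exon junction. Of 75 bases, Myt1 matched Myt1l at 58 (77.3%) and St18 at 59 (78.7%). Other pairings of fingers were not compared.
Myt1l finger 3 of 6: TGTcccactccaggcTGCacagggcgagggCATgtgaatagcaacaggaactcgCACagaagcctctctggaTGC
Myt1 finger 3 of 7: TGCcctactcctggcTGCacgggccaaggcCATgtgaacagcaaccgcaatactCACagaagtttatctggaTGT
St18 finger 2 of 6: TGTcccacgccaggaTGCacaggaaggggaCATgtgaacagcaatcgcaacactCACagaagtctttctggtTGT

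The first finger after codon 710 is the first that a protein cut short there would lack, and it is shown beside a chosen finger of each paralog. These lie at codons 906 to 930 of Myt1l (chr12:29886124-29893374), 888 to 912 of Myt1 (chr2:181815050-181815542) and 766 to 790 of St18 (chr1:6844122-6844303). Myt1 matched Myt1l at 58 of 75 bases (77.3%) and St18 at 57 (76.0%).
Myt1l finger 4 of 6: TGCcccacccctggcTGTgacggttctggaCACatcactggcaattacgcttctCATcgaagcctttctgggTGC
Myt1 finger 5 of 7: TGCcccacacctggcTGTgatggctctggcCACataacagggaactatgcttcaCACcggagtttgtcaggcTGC
St18 finger 4 of 6: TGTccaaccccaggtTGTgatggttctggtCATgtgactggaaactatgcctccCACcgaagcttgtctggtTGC

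After the filters, 94313 nuclei were kept (55026 WT, 39287 Het), with 9744768 to 24060689 UMIs per library and a median of 1892 UMIs per nucleus. No barcode was shared between libraries. Nuclei were assigned to classes by marker genes that did not include the 3 members, and 43697 (46.3%) received a class, named here as "-like". Every marker kept out of the assignment was also higher in its own class than elsewhere, except 1 of 2 in D1-like and 1 of 3 each in excitatory-like, cholinergic-like and intermediate progenitor-like nuclei. Levels are CPM, a gene's UMIs scaled to a common total of all UMIs of that class in 1 library, given as mean ± SD over libraries with at least 20 nuclei of that class. The 50616 kept nuclei without a class are in the all-nuclei values only.

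The 3 genes were counted in different cells. Myt1l was highest in neurons, Myt1 in oligodendrocyte-lineage-like nuclei, and St18 in cycling and inhibitory-like nuclei. Over all kept nuclei the level of Myt1l was 1471 ± 119 CPM, that of Myt1 56.9 ± 7.12 CPM and that of St18 15.1 ± 4.10 CPM (n = 12). Per kb of annotated span these were 3.72, 0.882 and 0.0404 CPM for spans of 394.83, 64.466 and 373.71 kb. Whether these UMI counts scale with span was not tested, so the order of different genes is given on both scales. On that scale Myt1l stood above Myt1 in excitatory-like nuclei (4.60 against 0.490 CPM per kb) and below it in oligodendrocyte-lineage-like nuclei (1.45 against 8.47 CPM per kb). In cycling nuclei the level per kb of Myt1 was also the higher, at 2.35 CPM against 1.05 CPM for Myt1l and 0.146 CPM for St18. Unscaled, Myt1l stood above Myt1 in both, at 572 against 546 CPM in the oligodendrocyte lineage and 413 against 152 CPM in cycling nuclei. Syt1 and Grin2b, genes of mature neurons, had excitatory levels of 1775 and 1776 CPM, near the 1818 CPM of Myt1l. They had 572 and 458 CPM in the oligodendrocyte lineage and 357 and 453 CPM in cycling nuclei. The Myt1l level in these 2 classes is not read as expression.

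**Figure D1:**
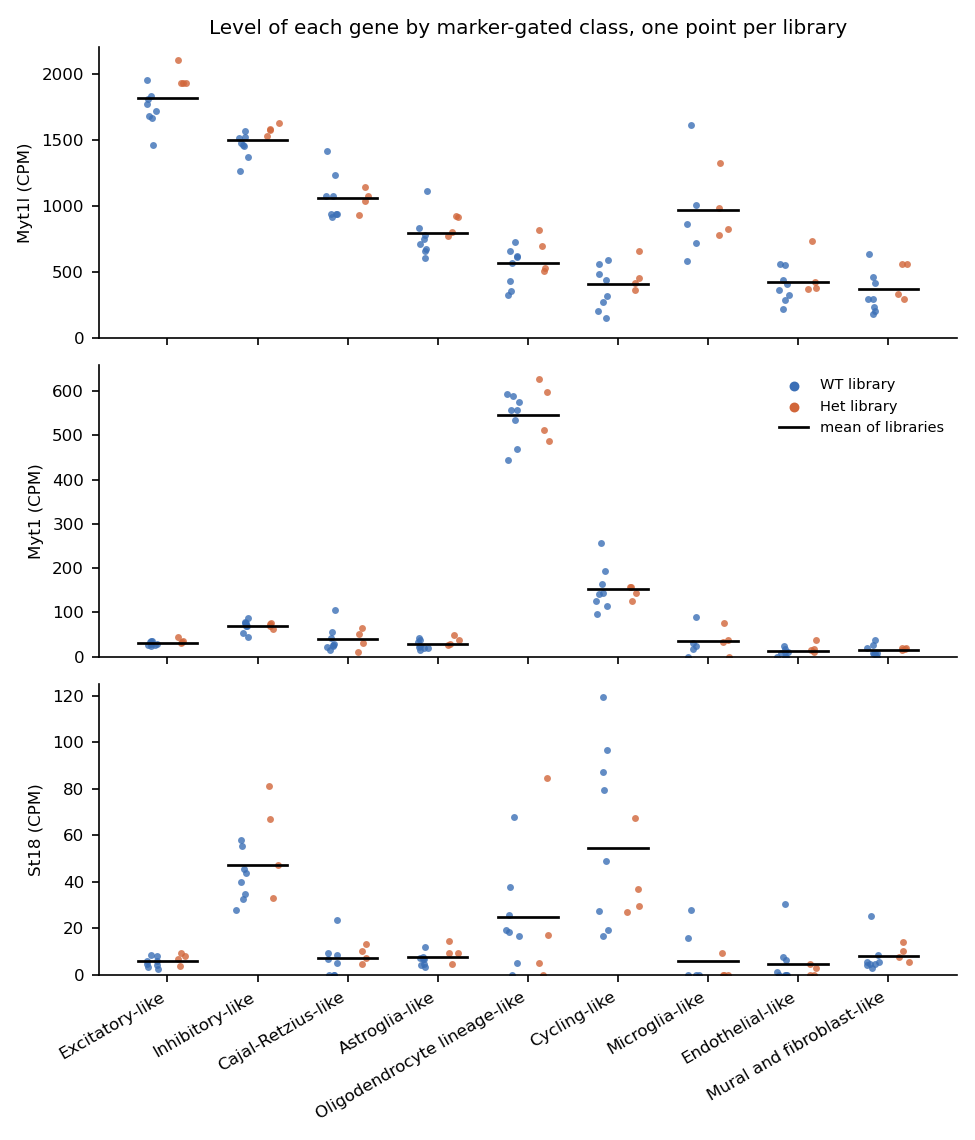
Level of Myt1l, Myt1 and St18 in CPM (linear axes from 0, 1 panel per gene) by marker-gated class, with 1 point per library in the colour of its genotype and a line at the mean over libraries. Myt1l peaks in excitatory-like nuclei at 1818 CPM, Myt1 in oligodendrocyte-lineage-like nuclei at 546 CPM, and St18 spreads widely among cycling libraries around 54.7 CPM.

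Myt1l had its highest level among the broad classes in excitatory-like nuclei, glutamatergic neurons of the cortex, at 1818 ± 171 CPM. The 12 libraries ran from 1462 CPM through a median of 1826 CPM to 2107 CPM. Inhibitory-like nuclei, the GABAergic neurons, had 1498 ± 100 CPM, with libraries from 1269 to 1631 CPM. The 2 ranges overlapped, but within each of the 12 libraries the excitatory level was the higher. The log2 difference was 0.28 ± 0.12 (SD, 1.21-fold; exact two-sided sign-flip permutation test over libraries, p = 0.000488, adjusted p = 0.000586 over 6 contrasts of the 3 genes). That p is the smallest that 12 libraries can give.

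Among non-neuronal classes, Myt1l was counted at 797 ± 139 CPM in astroglia-like, 572 ± 148 CPM in oligodendrocyte-lineage-like, 424 ± 137 CPM in endothelial-like and 375 ± 151 CPM in mural and fibroblast-like nuclei. Excitatory and inhibitory-like nuclei combined (23299, called neurons in the contrasts) stood 2.57-fold above 17678 non-neuronal nuclei (astroglia, oligodendrocyte lineage, microglia, endothelial, mural and choroid classes, without cycling nuclei), 1693 ± 118 against 669 ± 131 CPM (log2 difference 1.36 ± 0.23, higher in 12 of 12 libraries, exact sign-flip permutation p = 0.000488, adjusted p = 0.000586). The non-neuronal counts are set here beside those of genes of mature neurons in the same nuclei. In endothelial-like nuclei Myt1l stood at 23.3% of its excitatory level, and 9 genes of mature neurons such as Syt1 (28.8%) and Grin2b (27.8%) stood at 24.7% to 111.7%, each of the 9 above Myt1l. In mural and fibroblast-like nuclei the figure was 20.6% for Myt1l and 16.5% to 53.3% for the 9 genes, and in astroglia-like nuclei 43.9% against 42.6% to 169%. The Myt1l share thus lay within or below the range of the 9 neuronal genes in these 3 classes, and its level there is not read as expression.

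In order of level, Cajal-Retzius-like nuclei, early-born neurons of the marginal zone, followed the inhibitory-like ones at 1062 ± 151 CPM of Myt1l. Microglia-like nuclei had 968 ± 320 CPM (n = 9), and there Myt1l stood at 53.3% of its excitatory level, within the range of 32.9% to 107.6% for the 9 neuronal genes. The neighbours Cajal-Retzius and microglia (exact sign-flip permutation, adjusted p = 0.475), microglia and astroglia (adjusted p = 0.0813), endothelial and cycling (adjusted p = 0.658) and cycling and mural (adjusted p = 0.475) were not separated beyond their spread over libraries.

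Within neurons Myt1l varied by subclass. D2-like nuclei, by markers of striatal projection neurons of the indirect pathway, had the highest level at 2211 ± 212 CPM (n = 11). They stood above upper-layer-like nuclei at 1797 ± 206 CPM (exact sign-flip permutation, adjusted p = 0.00488). D1-like nuclei had 1774 ± 208 CPM (n = 9) and CGE-like interneurons, born in the caudal ganglionic eminence, 1721 ± 164 CPM. Upper-layer-like and D1-like levels were not separated (exact sign-flip permutation, adjusted p = 0.161, n = 9), nor were D1-like and CGE-like levels (adjusted p = 0.859, n = 9). Upper-layer-like against CGE-like nuclei was not tested. Deep-layer-like nuclei came next at 1531 ± 166 CPM, below CGE-like nuclei (exact sign-flip permutation, adjusted p = 0.00732). MGE-like interneurons, born in the medial ganglionic eminence, had the lowest level of the subclasses, 1343 ± 135 CPM (below deep-layer-like nuclei, exact sign-flip permutation, adjusted p = 0.00488). Gates for D1-like and D2-like nuclei rested on few nuclei (497 and 542 in all). Of the 2 independent markers of each, 0 in D1-like and 1 in D2-like nuclei reached a level 2-fold that of the others.

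Myt1 had its highest level in oligodendrocyte-lineage-like nuclei, the progenitors that later give myelinating cells, at 546 ± 56.8 CPM. Libraries ran from 445 CPM through a median of 558 CPM to 627 CPM, and the lowest of them lay above the highest library of every other broad class. Cycling nuclei followed at 152 ± 41.6 CPM (97.3 to 257 CPM; exact sign-flip permutation against the oligodendrocyte lineage, adjusted p = 0.00171). Inhibitory-like nuclei had 69.6 ± 11.5 CPM, below cycling nuclei (exact sign-flip permutation, adjusted p = 0.00171). Excitatory-like nuclei had 31.6 ± 5.59 CPM of Myt1, with libraries from 24.1 to 45.2 CPM, and were not separated from Cajal-Retzius-like (adjusted p = 0.557) or astroglia-like nuclei (adjusted p = 0.289).

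Both contrasts of Myt1 had the opposite sign to those of Myt1l, and the first rested on the oligodendrocyte lineage. Neurons had 45.8 ± 7.87 CPM of Myt1 and non-neuronal nuclei 104 ± 19.1 CPM, a 2.27-fold lower level in neurons in 12 of 12 libraries (log2 difference -1.18 ± 0.36, exact sign-flip permutation p = 0.000488, adjusted p = 0.000586). The other non-neuronal classes lay below the neuronal mean, at 29.0 CPM in astroglia-like, 34.1 CPM in microglia-like, 15.3 CPM in mural and fibroblast-like, 12.1 CPM in endothelial-like and 8.05 CPM in choroid and ependymal-like nuclei. Excitatory-like nuclei stood 2.20-fold below inhibitory-like ones, again in every library (log2 difference -1.14 ± 0.28, exact sign-flip permutation p = 0.000488, adjusted p = 0.000586). Eomes-type intermediate progenitor-like nuclei, by markers of precursors of excitatory neurons, numbered 82 and no library had 20 of them. Nuclei with at least 3 markers of division were placed in the cycling class instead. Pooled over libraries, their Myt1 level was 236 CPM (exact Poisson 95% interval 172 to 315 CPM, counting error only), a description without a test.

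St18 was the least counted of the 3 genes, and its highest levels were in dividing and inhibitory nuclei. Cycling nuclei had 54.7 ± 34.3 CPM and inhibitory-like nuclei 47.1 ± 15.7 CPM, levels that were not separated (exact sign-flip permutation, adjusted p = 0.851). The inhibitory libraries ran from 28.0 CPM through a median of 44.5 CPM to 81.0 CPM, and the excitatory ones from 2.33 through 5.87 to 9.58 CPM, with no overlap. Inhibitory-like nuclei stood 8.00-fold above excitatory-like ones (log2 difference, excitatory minus inhibitory, -2.999 ± 0.66, lower in 12 of 12 libraries, exact sign-flip permutation p = 0.000488, adjusted p = 0.000586). The excitatory level was near those of endothelial-like (4.45 CPM), microglia-like (5.89 CPM), astroglia-like (7.54 CPM) and mural and fibroblast-like nuclei (8.20 CPM). The fold is therefore not read as a ratio of 2 expression levels. In the same combination, neurons stood 2.08-fold above non-neuronal nuclei in 11 of 12 libraries (21.3 ± 7.69 against 10.2 ± 4.36 CPM, exact sign-flip permutation p = 0.000977, adjusted p = 0.000977). Excitatory-like nuclei alone, at 5.92 CPM, lay below the non-neuronal mean, and cycling nuclei were in neither side. The oligodendrocyte lineage ranged from 0 to 84.8 CPM among libraries (24.8 ± 26.6 CPM).

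Among neuronal subclasses, interneurons had the highest levels of St18. CGE-like nuclei had 73.7 ± 36.4 CPM and MGE-like nuclei 50.5 ± 27.7 CPM, not separated from each other (exact sign-flip permutation, adjusted p = 0.100), while MGE-like nuclei stood above deep-layer-like nuclei at 7.85 ± 3.68 CPM (adjusted p = 0.00147). D2-like nuclei had 9.52 ± 12.4 CPM and D1-like nuclei 4.75 ± 6.17 CPM, so the striatal subclasses with high Myt1l levels were low for St18.

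Shares of nuclei with a UMI were compared after thinning each nucleus to 800 UMIs, a depth every kept nucleus reached. Myt1l was detected in 73.6% of excitatory-like and 65.7% of inhibitory-like nuclei, against 18.5% of endothelial-like and 14.2% of mural and fibroblast-like nuclei. Unthinned the shares were 95.1%, 88.0%, 30.9% and 23.0%, at median depths of 2467, 2116, 1846 and 1593 UMIs. Myt1 was detected in 36.5% of thinned oligodendrocyte-lineage-like nuclei (Wilson 95% interval 34.7% to 38.3%) and 10.6% of cycling nuclei, against 0.957% of endothelial-like nuclei. St18 was detected in 3.91% of inhibitory-like, 4.04% of cycling and 7.26% of CGE-like nuclei, and in 0 of 1149 thinned endothelial-like nuclei, which at that depth allows a share of up to 0.333% (Wilson). Without thinning, 0.522% of the endothelial-like and 6.86% of the inhibitory-like nuclei had a St18 UMI. Without thinning, Myt1 was found in 25.2% of the inhibitory-like nuclei that had a St18 UMI and in 13.9% of those that had none. In the oligodendrocyte lineage the order was the other way, 31.7% with and 56.3% without St18. Both pairs describe these nuclei, whose depths differ, and were not tested.

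Within the oligodendrocyte lineage, the pooled levels of St18 and Myt1 were described by marker. These splits were chosen after values were seen and are given without a test. Nuclei were divided by 4 markers not used in the assignment: Gpr17, Bmp4, Mbp and Neu4, which are known from committed precursors or myelin-forming cells. St18 stood at 7.25 CPM (exact Poisson 95% interval 5.03 to 10.4) in the 2424 nuclei with none of the 4, 43.6 CPM (29.2 to 62.6) in the 340 nuclei with 1, and 1062 CPM (865 to 1295) in the 44 nuclei with 2 or more. The 44 nuclei, between 1 and 10 in a library that had any, came with higher St18 in 5 of 11 libraries (578 ± 899 against 7.36 ± 7.33 CPM over libraries). Of the St18 UMIs of the whole class, 63.3 came from Het M1 and 40.8 from WT F2, and between 0 and 16 from each other library, so the pooled value rests on few libraries. Myt1 in the same nuclei was 536, 595 and 430 CPM, and Myt1l 605, 452 and 226 CPM. Over libraries, Myt1 was 478 ± 504 CPM with 2 or more markers and 537 ± 62.1 CPM with none, and higher with 2 or more in 4 of 11. By single markers, St18 was 1003 CPM in the 22 nuclei with a Bmp4 UMI against 22.0 CPM without, and 391 CPM in the 141 with Mbp, a myelin protein gene, against 9.05 CPM without. Myt1 was lower with both, at 105 against 546 CPM for Bmp4 and 466.1 against 546 CPM for Mbp, and also with Neu4 (390 against 545 CPM) and Olig1 (466.2 against 559 CPM). With Gpr17 both paralogs were higher, Myt1 at 677 against 529 CPM and St18 at 171 against 18.1 CPM. The same held with Olig2, a transcription factor of the lineage, where Myt1 was 629 against 511 CPM and St18 57.5 against 22.1 CPM. Myt1 was higher with Pdgfra, the receptor that marks oligodendrocyte progenitors, in 12 of 12 libraries (609 ± 66.3 against 416 ± 75.9 CPM). St18 was higher with Pdgfra in 1 of 12 libraries (7.71 ± 6.49 against 59.7 ± 77.2 CPM). Myt1l, whose level in this class is not read as expression, was higher with Pdgfra in 0 of 12 libraries (432 ± 126 against 836 ± 280 CPM). Pdgfra, Olig1 and Olig2 were among the markers used in the assignment, unlike the 4 above. The part of nuclei of other classes in these splits was not tested.

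Cycling nuclei, those with at least 3 markers of division, were divided by the lineage markers they held. This too is a description of splits made after values were seen. In the 1067 cycling nuclei with no inhibitory marker, St18 stood at 4.66 CPM. It was 18.8 CPM in the 278 with 1 and 182 CPM (157 to 211) in the 462 with 2 or more, and the last group exceeded the first in 12 of 12 libraries (180 ± 108 against 4.64 ± 4.23 CPM). Myt1 went from 120 through 152 to 213 CPM over the same groups, and was the higher in 11 of 12 libraries. By oligodendrocyte-lineage markers, Myt1 was 103, 99.99 and 410 CPM in nuclei with 0, 1 and 2 or more, and the last exceeded the first in 12 of 12 libraries (425 ± 190 against 98.0 ± 39.5 CPM). St18 went the other way, 74.6, 33.6 and 9.53 CPM, and was lower with 2 or more oligodendrocyte-lineage markers in 12 of 12 libraries.

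**Figure D2:**
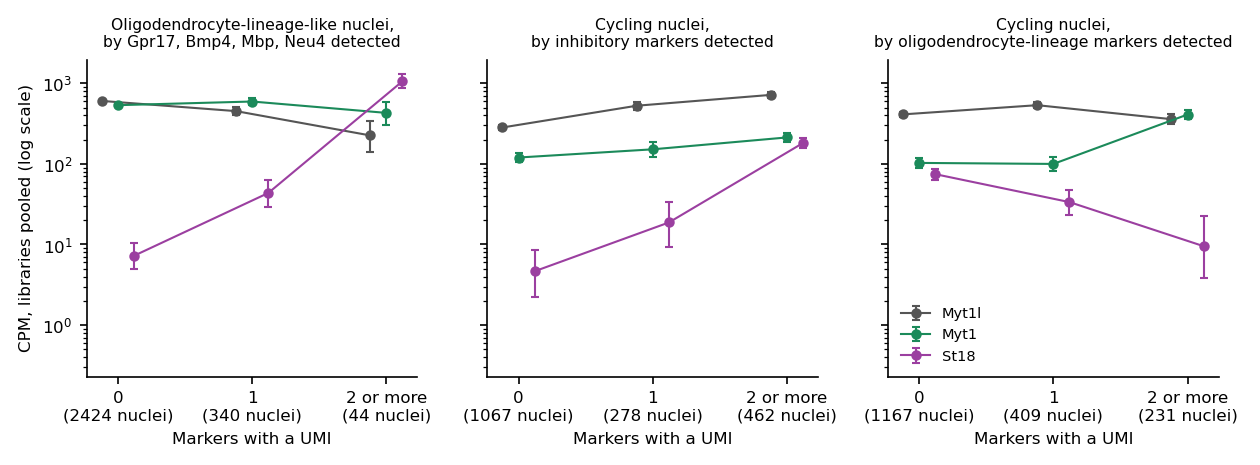
Level of each gene in CPM with libraries pooled (log axis) by how many lineage markers had a UMI, with bars for the exact Poisson 95% interval, which covers counting error only. St18 reaches 1062 CPM in the 44 oligodendrocyte-lineage-like nuclei with 2 or more later markers and 182 CPM in cycling nuclei with 2 or more inhibitory markers, and Myt1 reaches 410 CPM in cycling nuclei with 2 or more oligodendrocyte-lineage markers.

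Inhibitory-like nuclei were divided in the same descriptive way by subclass markers. St18 stood at 754 CPM (613 to 918) in the 48 nuclei with a UMI of Nkx2-1, the factor that patterns the medial ganglionic eminence, against 45.5 CPM in the rest. It was 404 CPM in the 81 nuclei with Lhx8, a factor of basal forebrain neurons, against 45.8 CPM in the rest. With cholinergic genes, St18 was 9.65 CPM (0.244 to 53.7, from 1 UMI) in the 37 nuclei with Slc5a7, the choline transporter gene, and 0 CPM (upper bound 121 CPM) in the 10 with Chat, which makes acetylcholine. Nuclei with Prox1, a factor of CGE-derived interneurons, had 131 CPM against 41.7 CPM, and those with Htr3a, a serotonin receptor gene, 140 CPM against 48.6 CPM. Of the other 4 CGE markers, Sp8 had the higher pooled St18 level with it (69.2 against 49.2 CPM). The level was below that of the rest for Adarb2 (44.7 against 55.5 CPM), Nr2f2 (34.1 against 50.5 CPM) and Vip (41.2 against 49.8 CPM). Of the other MGE markers, Lhx6 (61.2 against 48.1 CPM), Nxph1 (55.9 against 43.7 CPM) and Maf (67.3 against 45.5 CPM) came with more St18 and Sst (23.6 against 50.3 CPM) with less. The level was also lower in nuclei with Satb1 (27.8 against 55.7 CPM), Drd2 (17.4 against 52.3 CPM) and Ebf1 (15.2 against 56.6 CPM). With Nkx2-1, the higher St18 level appeared in 8 of the 11 libraries that had such nuclei (1 to 10 per library). The Myt1 level was 76.1 CPM with Nkx2-1 and 71.5 CPM without.

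Genes whose mean log2(CPM + 1) over 10 classes was most like each member were found among 11102 genes, as a description across classes that share libraries. Nearest to Myt1l were Hecw1 (Pearson r = 0.988, highest in excitatory-like nuclei at 811 CPM), Ccl27a (r = 0.986) and L1cam (r = 0.981), a neuronal adhesion molecule gene. Nearest to Myt1 were Brinp3 (r = 0.958, 1629 CPM in the oligodendrocyte lineage), Cacng4 (r = 0.947) and Spon1 (r = 0.941). Nearest to St18 were Gm48700 (r = 0.915), Gm48692 (r = 0.890) and Rbmx (r = 0.888), the first 2 highest in inhibitory-like nuclei and Rbmx in cycling nuclei.

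Along excitatory maturation, all 3 genes were counted at a lower level in the most mature bin than in the least mature one. Excitatory-like nuclei with at least 4 UMIs of the scoring genes (13508 nuclei) were ordered by the share of late-neuron genes among late and early gene UMIs and cut in 4 bins, without the members in the score. The Myt1l level was 2083 ± 211, 1829 ± 176, 1668 ± 130 and 1695 ± 170 CPM from the first to the fourth bin. Libraries of the first bin ran from 1728 through 2075 to 2461 CPM and of the fourth from 1400 through 1759 to 1876 CPM. The last bin was below the first in 12 of 12 libraries, by 1.23-fold (log2 difference -0.30 ± 0.11, exact sign-flip permutation p = 0.000488, adjusted p = 0.00147 over the 3 genes). Median depth per nucleus moved with the score, from 2002 UMIs in the first bin to 2618, 2857 and 2633 UMIs, and its part in the result was not tested beyond thinning, under which the direction and call held.

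Myt1 stood at 38.8 ± 10.1 CPM in the first bin and 29.2 ± 7.26, 28.6 ± 6.84 and 30.3 ± 9.47 CPM in the later ones. The last was below the first in 11 of 12 libraries (log2 difference -0.38 ± 0.45, exact sign-flip permutation p = 0.0190, adjusted p = 0.0249). St18 was counted at 10.0 ± 8.91 CPM in the first bin and 3.67 ± 2.21 CPM in the last, on either side of the non-neuronal levels given above. The last was lower in 9 of 12 libraries (log2 difference -1.03 ± 1.37, exact sign-flip permutation p = 0.0249, adjusted p = 0.0249). Only 77.8 and 35.6 St18 UMIs lay behind these 2 levels, and the St18 call was lost in upper-layer-like nuclei alone (log2 difference -0.71, exact sign-flip permutation p = 0.146) and after thinning (-0.95, p = 0.0801). Upper-layer-like nuclei alone gave lower last-bin levels of Myt1l in 12 of 12 libraries and of Myt1 in 10 of 12 (log2 differences -0.33 ± 0.18 and -0.81 ± 0.74). The Myt1 levels of the later bins were near those of astroglia-like (29.0 CPM) and microglia-like nuclei (34.1 CPM). Neither the Myt1 change nor the St18 change is therefore read as one of expression.

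**Figure D3:**
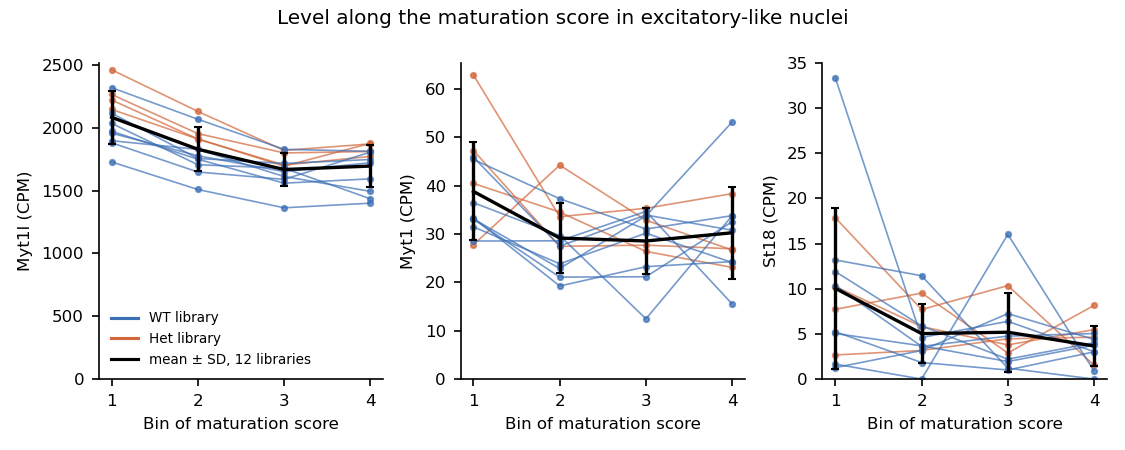
Level of each gene in CPM (linear axes from 0) in 4 bins of the maturation score of excitatory-like nuclei, with a thin line per library in the colour of its genotype and black for mean ± SD of 12 libraries. Myt1l falls from 2083 to 1695 CPM between the first and last bins, and St18 is below 34 CPM in every library.

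Between genotypes, Myt1l was counted at a somewhat higher level in Het than in WT libraries in most classes, and none of the 3 genes was called. In inhibitory-like nuclei the Het libraries had Myt1l levels of 1530 (M1), 1631 (M2), 1587 (M3) and 1576 CPM (F1). The WT libraries ran from 1269 through a median of 1472 to 1567 CPM, so 3 of 4 Het libraries lay above every WT library. The means were 1581 ± 41.3 CPM in Het and 1456 ± 95.7 CPM in WT (exact two-sided permutation p = 0.00808, adjusted p = 0.0808 over 16 groups of nuclei). In edgeR's quasi-likelihood fit over all genes the log2 fold change was 0.12 ± 0.08 (SE, adjusted p = 0.783), and 0 of 11241 genes were called (0.0%), against 820 (7.29%) at an unadjusted p under 0.05 and 1 by DESeq2.

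In excitatory-like nuclei the 4 Het libraries had Myt1l levels of 1931 (M1), 2107 (M2), 1930 (M3) and 1933 CPM (F1). The WT libraries ran from 1462 through 1748 to 1955 CPM, and 1 Het library lay above all of them. The means were 1975 ± 87.9 CPM in Het and 1739 ± 146 CPM in WT (exact permutation p = 0.0162, adjusted p = 0.0808). The edgeR log2 fold change was 0.18 ± 0.07 (adjusted p = 0.397), and its adjusted p ran from 0.169 to 0.780 over the alternatives tried. At the study's thresholds (adjusted p under 0.05 with a change of 0.2 or more on the log2 scale) 4 of 12386 genes were called (0.0323%), while 10.3% had an unadjusted p under 0.05. The 4 called genes, named after their values were seen, were Tmeff2 and Dnm1, lower in Het, and Cachd1 and Adamts6, higher in Het. That count was not stable: it was 26 by DESeq2, 0 with RLE normalization or sex as covariate, and from 0 to 207 with 1 library left out (207 without Het F1).

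By subclass, Myt1l stood at 1988 ± 101 CPM in Het and 1702 ± 177 CPM in WT upper-layer-like nuclei (exact permutation p = 0.0121, adjusted p = 0.0808, edgeR adjusted p = 0.566). In MGE-like nuclei the levels were 1471 ± 140 CPM and 1280 ± 78.4 CPM (exact permutation p = 0.0202, adjusted p = 0.0808, edgeR adjusted p = 0.646). The fitted log2 fold change was positive in 14 of 15 classes, with a median of 0.14 and a range from -0.01 in Cajal-Retzius-like to 0.37 in mural and fibroblast-like nuclei. These classes come from the same 12 libraries, and the subclasses lie within the excitatory and inhibitory classes, so they are not separate evidence. Several are classes where the Myt1l level is not read as expression, among them the mural and fibroblast-like nuclei with the highest value. Of the 16 groups fitted, 3 had an unadjusted p under 0.05 (excitatory, upper-layer and MGE-like) against 10.3%, 6.95% and 6.79% of all genes there. In the other classes 3.23% (endothelial), 3.73% (oligodendrocyte lineage), 4.18% (Cajal-Retzius and microglia), 4.2% (cycling), 4.43% (mural and fibroblast), 4.64% (astroglia), 4.97% (D1), 5.09% (D2) and 8.35% (deep layer) of all genes had such a p. Calls at the adjusted threshold were 0.0134% of genes in upper-layer-like, 0.0291% in deep-layer-like and 0.0158% in MGE-like nuclei, and 0 in the classes of the preceding sentence other than deep layer and in CGE-like nuclei. In none of the 16 groups of nuclei tested did every Het library exceed every WT library in its Myt1l level, a pattern that 0.549% of genes with at least 30 UMIs showed over all nuclei, 0.389% in excitatory-like, 0.35% in inhibitory-like, 0.303% in upper-layer-like, 0.316% in MGE-like and 0.294% in CGE-like nuclei. Both genes that overlap Myt1l on the other strand, Gm20208 and C630031E19Rik, were at 1.65 ± 0.46 and 1.96 ± 0.37 CPM over all nuclei.

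**Figure D4:**
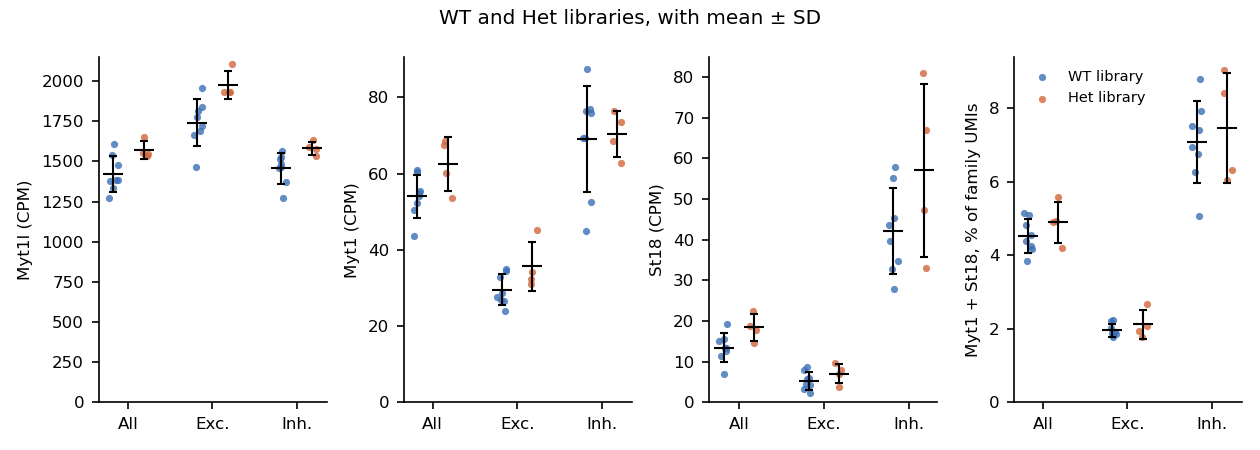
Levels in CPM of Myt1l, Myt1 and St18, and the share of Myt1 plus St18 among the UMIs of the 3 genes in percent (linear axes from 0), for all, excitatory-like and inhibitory-like nuclei, with 1 point per library and black mean ± SD for 8 WT and 4 Het libraries. In excitatory-like nuclei Myt1l stands at 1739 CPM in WT and 1975 CPM in Het, and the paralogs' share at 1.97% and 2.12%.

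For the paralogs, the Myt1 level in excitatory-like nuclei was 31.1 (M1), 32.4 (M2), 45.2 (M3) and 34.3 CPM (F1) in Het, and from 24.1 through 28.1 to 35.1 CPM in WT. Het M3 lay above all WT libraries and the others within their range. The means were 35.7 ± 6.44 and 29.5 ± 4.09 CPM (exact permutation p = 0.0848, adjusted p = 0.372), and the edgeR log2 fold change was 0.27 ± 0.12 (p = 0.0364, adjusted p = 0.455). Without Het M3 that fold change was 0.14. These levels were near those of astroglia-like (29.0 CPM) and microglia-like nuclei (34.1 CPM), so the difference is not read as one of expression. In astroglia-like nuclei the Myt1 levels were 35.1 ± 9.99 CPM in Het and 26.0 ± 9.58 CPM in WT (edgeR log2 fold change 0.45 ± 0.24, adjusted p = 0.987). In inhibitory-like nuclei Myt1 was at 70.4 ± 5.96 CPM in Het and 69.1 ± 13.9 CPM in WT (exact permutation p = 0.925, edgeR log2 fold change -0.01 ± 0.12). In the oligodendrocyte lineage, where Myt1 is highest, it was at 557 ± 67.0 CPM in Het and 541 ± 55.2 CPM in WT (exact permutation p = 0.675, edgeR log2 fold change 0.05 ± 0.10). Of 10 groups of nuclei in which Myt1 could be fitted, 6 had a positive fold change, 2 an unadjusted p under 0.05 (all nuclei and excitatory-like, against 10.0% and 10.3% of all genes) and 0 a call.

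Among the groups fitted, St18 had higher mean levels in Het everywhere but in cycling nuclei, with wide spread. Fitted log2 fold changes were 0.36 ± 0.29 in excitatory-like, 0.53 ± 0.30 in astroglia-like and 0.20 ± 0.58 in oligodendrocyte-lineage-like nuclei. The St18 levels of the first 2, 5.92 and 7.54 CPM, were near those of endothelial-like and mural and fibroblast-like nuclei. In inhibitory-like nuclei the Het libraries had 67.0 (M1), 47.2 (M2), 81.0 (M3) and 32.9 CPM (F1), and the WT libraries 28.0 through 41.7 to 57.9 CPM. Of the Het libraries, 2 of 4 lay above every WT library and the lowest lay within the WT range (57.0 ± 21.2 against 42.1 ± 10.6 CPM, exact permutation p = 0.133, edgeR log2 fold change 0.36 ± 0.20, adjusted p = 0.728). The edgeR log2 fold change was 0.69 ± 0.32 in MGE-like nuclei (adjusted p = 0.707) and 0.64 ± 0.29 in CGE-like nuclei (adjusted p = 0.989). Without Het M3 the St18 fold change was 0.27 in CGE-like and 0.15 in all inhibitory-like nuclei, and without Het F1 it was 0.55 in the latter. In cycling nuclei St18 stood at 40.1 ± 18.7 CPM in Het and 61.9 ± 39.0 CPM in WT (exact permutation p = 0.303, edgeR log2 fold change -0.64 ± 0.44). Of 8 groups fitted, 7 had a positive fold change, 3 an unadjusted p under 0.05 (all nuclei, MGE-like and CGE-like, against 10.0%, 6.79% and 4.78% of all genes) and 0 a call.

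Among the 16 groups tested, the St18 levels of the 2 genotypes did not overlap in deep-layer-like nuclei. The Het libraries had 11.3 (M1), 13.3 (M2), 10.6 (M3) and 10.2 CPM (F1), and the WT libraries ran from 0 through 6.72 to 9.45 CPM. The means were 11.4 ± 1.38 and 6.08 ± 3.13 CPM (exact permutation p = 0.00404, the smallest that 8 against 4 libraries allow, adjusted p = 0.0646 over 16 groups). Only 65.2 St18 UMIs lay behind them, the gene did not pass the count filter of the edgeR fit there, and 35 of 11714 genes with at least 30 UMIs (0.299%) had every Het library above every WT library. Over both genotypes the St18 level there was 7.85 CPM, near 7.54 CPM in astroglia-like and 8.20 CPM in mural and fibroblast-like nuclei. The genotype difference is therefore not read as one of expression. Deep-layer-like nuclei were also a smaller share of kept nuclei in Het, 2.28 ± 0.846% against 3.70 ± 1.08%.

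**Figure D5:**
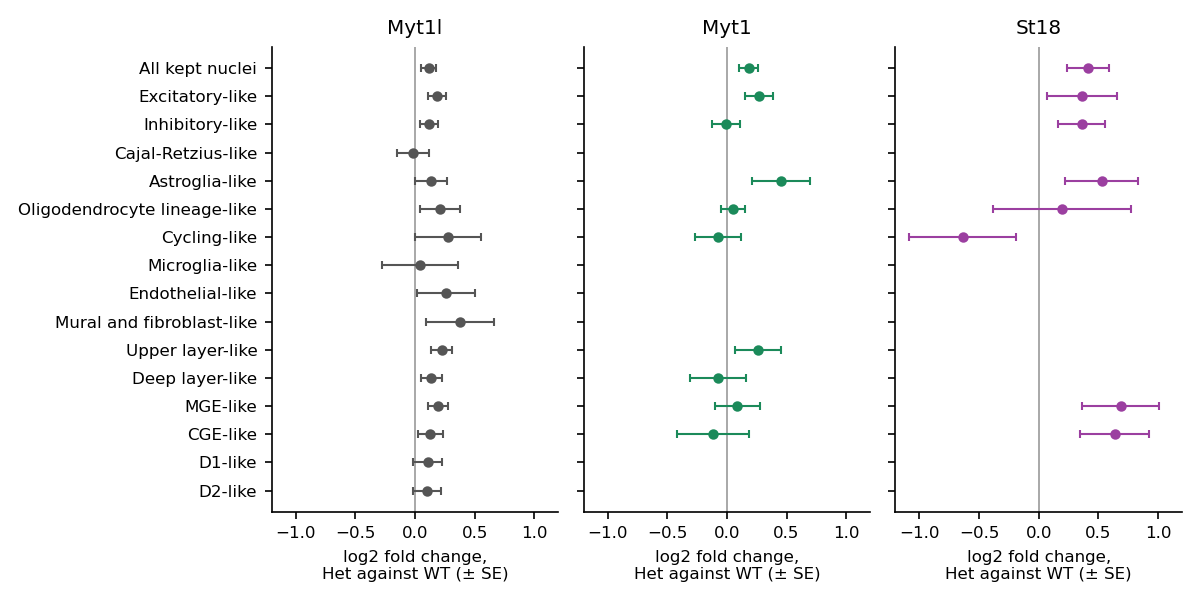
Fitted log2 fold change of Het against WT ± SE (edgeR, linear axis) for each gene in each group of nuclei where it passed the count filter. Myt1l points are right of 0 in 15 of 16 groups at 0.37 or less, Myt1 points lie on both sides, and St18 points have the widest errors.

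Over all kept nuclei, Myt1l was at 1530 (M1), 1651 (M2), 1546 (M3) and 1554 CPM (F1) in Het and at 1269 through 1383 to 1609 CPM in WT. Fold changes there were 0.11 ± 0.06 for Myt1l (adjusted p = 0.560), 0.18 ± 0.08 for Myt1 (adjusted p = 0.482) and 0.41 ± 0.18 for St18 (adjusted p = 0.464) on the log2 scale (edgeR). For St18 the levels were 18.4 ± 3.32 CPM in Het and 13.4 ± 3.51 CPM in WT, and for Myt1 62.5 ± 7.01 and 54.1 ± 5.59 CPM. Of 20104 genes tested, 1 was called (0.00497%; Gm38340, lower in Het, named after its values were seen), and 10.0% had an unadjusted p under 0.05. All-nuclei levels also move with the make-up of the libraries: excitatory-like nuclei were 16.2 ± 2.08% of kept nuclei in WT and 13.5 ± 1.17% in Het, and the part of this in the result was not tested.

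As a measure that does not use library totals, the share of Myt1 and St18 among the UMIs of the 3 genes was compared within libraries. Most UMIs of the 3 genes are of Myt1l, whose alleles are not separated. Myt1l was itself somewhat higher in Het, which lowers the share there. Over all nuclei it was 4.90 ± 0.559% in Het (M1 4.90%, M2 4.92%, M3 5.57%, F1 4.21%) and 4.53 ± 0.463% in WT (3.84% to 5.16%). The exact two-sided permutation p was 0.259 (adjusted p = 0.6 over 3 groups). In excitatory-like nuclei the paralogs' share was 2.12 ± 0.392% in Het and 1.97 ± 0.177% in WT (exact permutation p = 0.400), and in inhibitory-like nuclei 7.45 ± 1.49% and 7.08 ± 1.12% (exact permutation p = 0.618). Both paralogs stood near non-neuronal levels in excitatory-like nuclei, so their share there is not read as one of expression. A difference in the paralogs' share between genotypes was not detectable with 8 and 4 libraries.

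The change along excitatory maturation was also compared between genotypes. The log2 difference of Myt1l between last and first bins was -0.31 ± 0.07 in Het and -0.29 ± 0.13 in WT (exact permutation p = 0.824), that of Myt1 -0.59 ± 0.36 and -0.27 ± 0.47 (p = 0.259, exact) and that of St18 -0.78 ± 1.57 and -1.15 ± 1.35 (p = 0.675, exact). With each nucleus thinned to 800 UMIs the Myt1 values were -0.52 in Het and -0.79 in WT, so the sign of the genotype difference was reversed. Within each bin, values added after the data were seen and without a test, the Myt1l level of all 4 Het libraries lay above the WT mean. The means were 2273 ± 135 against 1988 ± 176 CPM in the first bin and 1832 ± 50.1 against 1626 ± 168 CPM in the last. The 9 late genes had a median log2 fold change of -0.04 in excitatory-like nuclei (4 of 9 positive) and the 7 early genes 0.13 (5 of 7 positive), beside -0.00303 over all genes, with 0 of either called.

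Other genes of the pathway showed no call. The list held 26 genes: corepressor subunits, proneural factors, Notch and Wnt pathway genes and progenitor genes. In excitatory-like nuclei 16 of the 26 could be tested, with 0 called higher, 0 called lower, 1 at an unadjusted p under 0.05 (10.3% of all genes) and 0 called by DESeq2 (2 with an adjusted p). Their median log2 fold change was -0.04 beside -0.00303 over all genes. The smallest p belonged to Notch1, the Notch receptor (log2 fold change 0.86 ± 0.32, edgeR adjusted p = 0.371), followed by Rest, a repressor of neuronal genes (0.44 ± 0.27, adjusted p = 0.602), and Hdac1, a histone deacetylase (-0.21 ± 0.13, adjusted p = 0.631). In inhibitory-like nuclei 17 were tested, and over all nuclei all 26, with 0 calls in each, 0 and 1 at an unadjusted p under 0.05 (7.29% and 10.0% of all genes), and 0 by DESeq2.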

How the data were processed

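Nuclei of 12 forebrains were profiled by split-pool barcoding (Scale Biosciences kit), each sample in its own wells of 1 batch. The authors deposited UMI counts per gene and nucleus as made by the ScaleRna pipeline on mm10; the submitters' processing notes also name Seurat 4.3.0. Between 6.58% and 6.88% of entries were fractions, so the deposited values were treated as estimated counts and sums were rounded before the edgeR fit, although whole counts had been planned for. The rule that divides a UMI among genes, and whether strand was used, were not given in the sources used here.

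Of 126684 barcodes, 98111 passed limits on UMIs (800 to 6000), genes (300 to 3000), mitochondrial share (1% at most) and log(genes)/log(UMIs) (0.9 or more). The 5% of barcodes per library with the highest score for simulated doublets were marked, and 3798 of those passing were removed. A class needed at least 2 markers with a UMI, a summed weight of at least 1.2 (each marker weighted by -log10 of its share of nuclei) and a lead of 0.6. These thresholds were set on marker detection, not on the 3 genes. Depth was 15439429 to 40784144 UMIs per library before and 9744768 to 24060689 after filtering, and intervals cover counting error only.

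Sums per library and class were tested with edgeR 4.0.16 (quasi-likelihood, filterByExpr, TMM, genotype only, R 4.3.3) with Benjamini-Hochberg adjustment over all genes tested. DESeq2 1.42.0 was an alternative. Levels used exact permutation tests over libraries (scipy 1.17.1), with 0.5 UMI added before log2 in paired differences. In data simulated with known changes for excitatory-like nuclei (12191 genes), the edgeR step called 37% of changes of 0.5 and 76% of changes of 1 on the log2 scale. For all nuclei (19850 genes) it called 42% and 84%.

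The members and lists were chosen with earlier results of these data known. Named genes were the 3 members, the 3 genes most like each by class means (among genes at 20 CPM or more in a class), the 3 pathway genes with the smallest p in excitatory-like nuclei, genes overlapping a member, and markers. Finger and allele sequences were read from the GRCm38 genome with GENCODE M21 models, whose gene IDs matched the 3 in the files. Each library is 1 animal. A marker of the oligodendrocyte lineage and a gene of the pathway list are not reported here.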

Additional observations from a re-analysis of the deposited data

Results flagged for a closer look

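Of 64 sets of 4 to 8 libraries examined, 5 held 1 library far from the rest, where chance alone gives about 1 in 20. For Myt1l in excitatory-like nuclei, Het M2 stood at 2107 CPM while the other 3 Het libraries lay between 1930 and 1933 CPM. For Myt1l in astroglia-like nuclei, WT M5 stood at 1117 CPM and the other WT libraries between 610 and 838 CPM, a class in which Myt1l lay within the range of the 9 neuronal genes. For Myt1 in Cajal-Retzius-like nuclei, WT F3 stood at 105.5 CPM and the others between 13.6 and 56.3 CPM, on few UMIs. WT M1 stood apart for Myt1 in MGE-like nuclei (70.6 CPM against 36.8 to 52.7) and for St18 in CGE-like nuclei (114.7 CPM against 24.9 to 67.4).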

How the results depend on the processing

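Of the recomputed values, 533 kept their direction and their side of the threshold, 39 counts of called genes moved by over 1.5 times, 11 values changed sign, 2 lost a call and 1 gained one. The class contrasts and the Myt1l and Myt1 maturation changes kept direction and call in each alternative tried. The St18 maturation change lost its call in upper-layer-like nuclei only (-0.71) and with nuclei thinned to 800 UMIs (-0.95). The Het minus WT slope turned positive for Myt1l without WT M3 (0.016) or Het M2 (0.011) and negative for St18 without Het M1 (-0.077), over ranges of -0.048 to 0.016 and -0.077 to 1.11, and for Myt1 passed the threshold without Het F1 (-0.49, range -0.49 to -0.17) and, outside that count, changed sign with nuclei thinned to 800 UMIs (0.28). The paralogs' share differed by -0.027 to 0.275 percentage points in excitatory-like and -0.15 to 0.839 in inhibitory-like nuclei when 1 library was left out, with the negative values without Het M3. The Myt1 fold change in inhibitory-like nuclei, -0.01, became 0.027 in males only, 0.020 with all deposited barcodes, 0.021 with 1 more marker needed, and ran from -0.058 to 0.051 with 1 library left out (0.051 without WT M1, 0.01 without WT M3, 0.04 without Het M2). No member was called under any alternative in the groups recomputed (all, excitatory, inhibitory, upper-layer, MGE and CGE-like nuclei), where the lowest adjusted p was 0.0875, for St18 in MGE-like nuclei. The causes were not tested.

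Over all nuclei 44 genes were called by DESeq2, 2 in males only, 0 with sex as covariate or doublet-scored barcodes kept, and 0 to 41 with 1 library left out (41 without Het F1). In excitatory-like nuclei 26 were called by DESeq2, 254 without a filter on low counts, 102 in males only, 0 with RLE normalization, sex as covariate, doublet-scored barcodes kept or 1 more marker needed, and 0 to 207 with 1 library left out (207 without Het F1). In inhibitory-like nuclei the counts were 1 by DESeq2 and 156 without the filter.

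WT and Het libraries share the numbers M1 to M3 and F1, and with them the sex. The deviations of same-numbered libraries correlated by -0.11, 0.04, 0.02 and 0.24 over all nuclei, and 1 of 4, F1, correlated best with its own. F1 also did so in excitatory-like (0.24) and inhibitory-like nuclei (0.16), as did M2 in inhibitory-like nuclei (0.15). The labels name no pairing, and these values cannot show whether same-numbered animals shared a litter. With these 8 libraries and a replicate block, 0 genes were called over all nuclei and 10 in excitatory-like nuclei, against 0 and 0 without the block (added after seeing the data), and the Myt1l fold change in excitatory-like nuclei was 0.17 with and 0.17 without it. Depth limits St18 most: 217 UMIs in all excitatory-like nuclei.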

Other observations

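The 50616 kept nuclei without a class had pooled levels of 1662 CPM for Myt1l, 46.5 CPM for Myt1 and 12.8 CPM for St18. Cholinergic-like nuclei numbered 128, with 20 or more in 1 library only, and had pooled levels of 1030 CPM for Myt1l, 45.3 CPM for Myt1 and 30.6 CPM for St18. Choroid and ependymal-like nuclei (5 libraries) had 335 ± 178 CPM of Myt1l, 8.05 ± 11.3 CPM of Myt1 and 15.9 ± 19.2 CPM of St18. In cycling nuclei, Myt1l was 235 CPM in the 1343 with no excitatory marker, 741 CPM in the 349 with 1 and 1051 CPM in the 115 with 2 or more, a description with libraries pooled.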
